A study of Rattus norvegicus with 2 samples.

Results

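Genes of neutrophil granules and of calprotectin were compared between the dorsal root ganglia (DRGs) of the tumor-bearing side and those of the other side in rats. The 10 listed genes were S100a8, S100a9, Np4, Mpo, Lcn2, Camp, Elane, Ltf, Ngp and Prtn3, and they were chosen by gene family and from the lower tumor-side signals of several of them on these same arrays. Of the 10, 5 had a probe set with that gene as its single symbol (S100a8, S100a9, Np4, Lcn2 and Camp, 1 probe set each, 5 of 31042 probe sets in all). The other 5 (Mpo, Elane, Ltf, Ngp and Prtn3) had no probe set under their symbol, older symbols or gene identifier, so no value is given for them. A probe set with no listed gene may still detect them.

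IP-B12 is a rat pulmonary carcinoma line that destroys bone as it grows, and 100000 of its cells had been placed in the right tibia, in its marrow cavity, 14 days before the DRGs were taken. The tumor side is the DRGs of that leg and the control side is the DRGs of the left leg, which belonged to tumor-bearing rats and is not described as having had a sham injection. Each side is 1 array of the GeneChip Rat Genome type made from 100 ng of total RNA. The rats were female Sprague-Dawley animals, 4 weeks of age by the study's methods, and how many of them the RNA was drawn from is not stated in the sources used here. The array medians were 69.0 on the control side against 72.7 on the tumor side, and the signal ratio of 3′ to 5′ actin probe sets, which depends on RNA integrity and on labelling, was 8.79 and 9.22. Since no side was measured again, no error between replicates and no test can be given, and each ratio below describes these 2 arrays. The tissue label was checked against sensory neuron (SN) genes, and all 9 with a probe set had signals above the array median on both sides, with Prph (peripherin) at 8896 on the control side against 8852 on the tumor side.

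Neutrophils carry antimicrobial proteins packed in granules. The azurophil granules, formed first while the cell matures in the bone marrow, hold myeloperoxidase (Mpo), the serine proteases Elane and Prtn3, and alpha-defensins such as Np4. The specific granules, formed later, hold lactoferrin (Ltf), the siderophore-binding lipocalin Lcn2, the cathelicidin Camp and Ngp. S100a8 and S100a9 encode the chains of calprotectin, a calcium- and zinc-binding heterodimer that is abundant in the cytosol of neutrophils and is also made by monocytes. Transcripts of granule proteins are most abundant in marrow precursors, whereas calprotectin transcripts persist in circulating neutrophils.

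In the RefSeq annotation of GRCr8, S100a8 and S100a9 are neighbours with no other protein-coding gene between them, and Np4 lies in the alpha-defensin cluster beside Defa9 and Defa11, with RatNP-3b next to Defa11. The promoters of S100a9, Np4 and RatNP-3b are shown because they belong to granulocyte genes whose signals differed by a fold near or above 2. The signals of S100a8 and Defa5 differed by such a fold too, but no promoter was available for them. Each runs from 250 bases before to 50 after the annotated start, 5′ to 3′ on the gene's strand. Capitals mark matches on either strand to TTGCNNAA (a C/EBP-type motif), TATAAA (the core promoter element) or GAGGAA (a PU.1-type motif), none of which overlap here.
S100a9 promoter, GRCr8 chr2:178490573-178490872, minus strand: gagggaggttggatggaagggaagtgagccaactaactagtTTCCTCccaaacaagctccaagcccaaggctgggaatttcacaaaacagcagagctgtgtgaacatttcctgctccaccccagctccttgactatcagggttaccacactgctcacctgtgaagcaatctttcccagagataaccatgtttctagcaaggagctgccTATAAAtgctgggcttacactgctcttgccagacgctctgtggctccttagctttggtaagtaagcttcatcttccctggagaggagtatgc
Np4 promoter, GRCr8 chr16:77199593-77199892, minus strand: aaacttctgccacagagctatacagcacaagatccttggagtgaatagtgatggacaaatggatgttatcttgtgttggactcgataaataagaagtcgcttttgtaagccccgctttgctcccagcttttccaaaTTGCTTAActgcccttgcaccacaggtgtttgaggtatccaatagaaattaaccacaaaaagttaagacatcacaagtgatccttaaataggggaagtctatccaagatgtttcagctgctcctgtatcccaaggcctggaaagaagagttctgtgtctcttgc
RatNP-3b promoter, GRCr8 chr16:77248928-77249227, minus strand: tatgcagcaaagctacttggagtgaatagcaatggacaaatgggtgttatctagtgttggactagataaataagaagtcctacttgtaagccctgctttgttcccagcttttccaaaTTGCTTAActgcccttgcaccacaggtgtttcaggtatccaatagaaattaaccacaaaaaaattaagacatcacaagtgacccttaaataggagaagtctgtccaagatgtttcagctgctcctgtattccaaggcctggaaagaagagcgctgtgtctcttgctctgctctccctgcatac

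The S100a9 window held TATAAA, which begins 42 bases before the start, and the reverse complement of GAGGAA, and no TTGCNNAA. Np4 and RatNP-3b held the same TTGCTTAA, 114 and 133 bases before their starts, and their windows were identical at 259 of 319 aligned columns (81.2%), against 40.1% between Np4 and S100a9. Over all 33469 promoters of this length, 10.6% held TTGCNNAA, 14.2% TATAAA and 27.6% GAGGAA. Of the 8 listed genes with a promoter in the table, 3 held TTGCNNAA (Np4, Lcn2 and Ngp), 1 TATAAA and 4 GAGGAA. The motifs were chosen after the sequences had been seen, and the matches describe letters only.

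Both calprotectin chains had lower signals on the tumor side. The signal of S100a8 (probe set 1368494_at) was 345 on the control side against 151 on the tumor side. This is 2.28 times lower (log2 ratio -1.19). Its signal went from percentile 77.7 of the control-side array to percentile 62.3 of the tumor-side array. The signal of S100a9 (1387125_at) was 572 on the control side against 286 on the tumor side, at percentiles 85.03 and 73.5. Its tumor-side signal was 50.02% of the control-side one (log2 ratio -0.999), just short of a fold of 2. The log2 ratios of the 2 chains were 0.19 apart. The SD between log2 ratios of probe sets of the same gene was 0.17 near the signal of S100a8 (602 genes). Near that of S100a9 it was 0.13 (496 genes). These SDs were taken within the same 2 arrays. They hold no variation between animals, dissections or hybridizations, and cannot stand for a spread between replicates. The signals of both chains were above the median of their array on both sides.

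Np4, an alpha-defensin of azurophil granules and the only azurophil granule member with a probe set, had the lowest ratio of the members. Its signal (1370470_at) was 223 on the control side against 90.5 on the tumor side, 2.47 times lower (log2 ratio -1.30). Both signals were above the array medians, at percentiles 70.1 and 53.6, and its tumor-side signal was the nearest to the median among the 3 members above it. Alpha-defensin genes resemble each other closely, so the Np4 probe set may also bind transcripts of its neighbours, and the defensin values are not independent of each other.

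The specific granule members, by contrast, were dim on both arrays. The signal of Camp (1393603_at) was 23.6 on the control side against 30.9 on the tumor side, higher there by a log2 ratio of 0.39, while probe sets of the same gene near this signal differed by an SD of 0.60 (409 genes). Camp was the nearest member below the array medians. The signal of Lcn2 (1387011_at) was 2.60 and 1.99, under the brightest of 3 control probe sets for the bacterial trp gene (5.39 and 4.63), which should have no target in rat RNA, and no fold is given. Camp and Lcn2 thus show no difference between the sides beyond the spread of same-gene probe sets at their signals, and a difference in them was not detectable here.

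**Figure D1:**
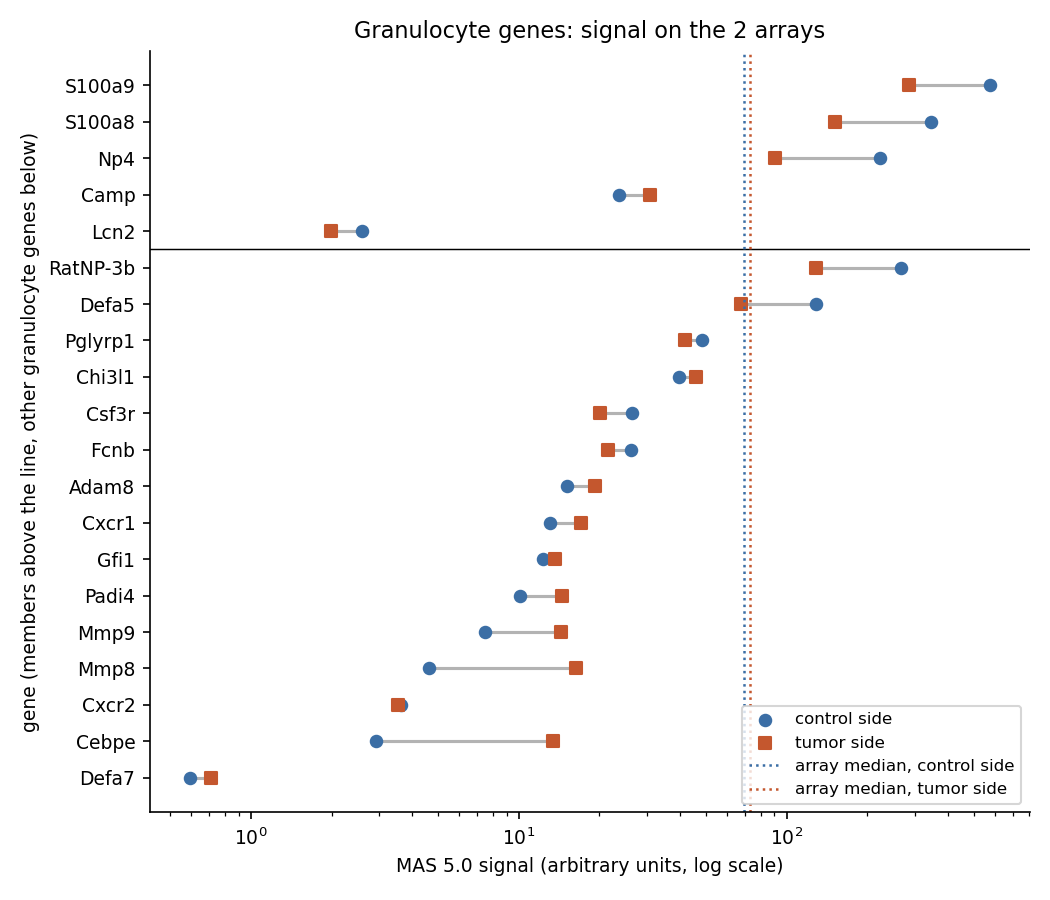
MAS 5.0 signal in arbitrary units on a log scale for the 5 members (above the line) and 15 other granulocyte genes (below it), 1 circle for the control-side array and 1 square for the tumor-side array, with dotted lines at the array medians of 69.0 and 72.7. S100a9, S100a8 and Np4 have both signals above the medians and the tumor-side one lower, as does RatNP-3b, while Camp, Lcn2 and 13 of the other 15 genes lie below the medians.

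Of the 5 members, 3 (S100a8, S100a9 and Np4) stood above the array medians on both sides and 2 on neither. No member passed through the control side alone. The median log2 ratio of the 3 was -1.19, and that of all 5 was -0.999, with 4 lower and 1 higher on the tumor side. Over the 9309 genes with both signals above the medians the median was 0.08. Of the 3, 2 (S100a8 and Np4) were lower by a fold of 2 or more. Among all 15079 probe sets with both signals at or above the medians, 6 were so, or 0.0398%. Among the 15914 probe sets whose higher signal reached the median of its array, the signal rule, 24 were so, or 0.151%. Between the signals of Np4 and S100a9 (geometric means of 142 and 405), 95% of 5555 probe sets had log2 ratios from -0.31 to 0.45, and 5 of them, or 0.09%, reached a fold of 2 in that direction. Those 5 were Car3, Np4, S100a8, RatNP-3b and Acta1. Since the members were selected on these values, the counts are given side by side as a description.

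Ordered by log2 ratio from the lowest, Np4 was the 3rd, S100a8 the 4th and S100a9 the 7th of the 15079 probe sets. The others among the lowest 7 were Car3, a carbonic anhydrase of muscle and fat (252 and 84.9), Bin1, which shapes membranes of muscle and neurons (670 and 264), RatNP-3b (267 and 129) and the muscle actin Acta1 (397 and 192).

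**Figure D2:**
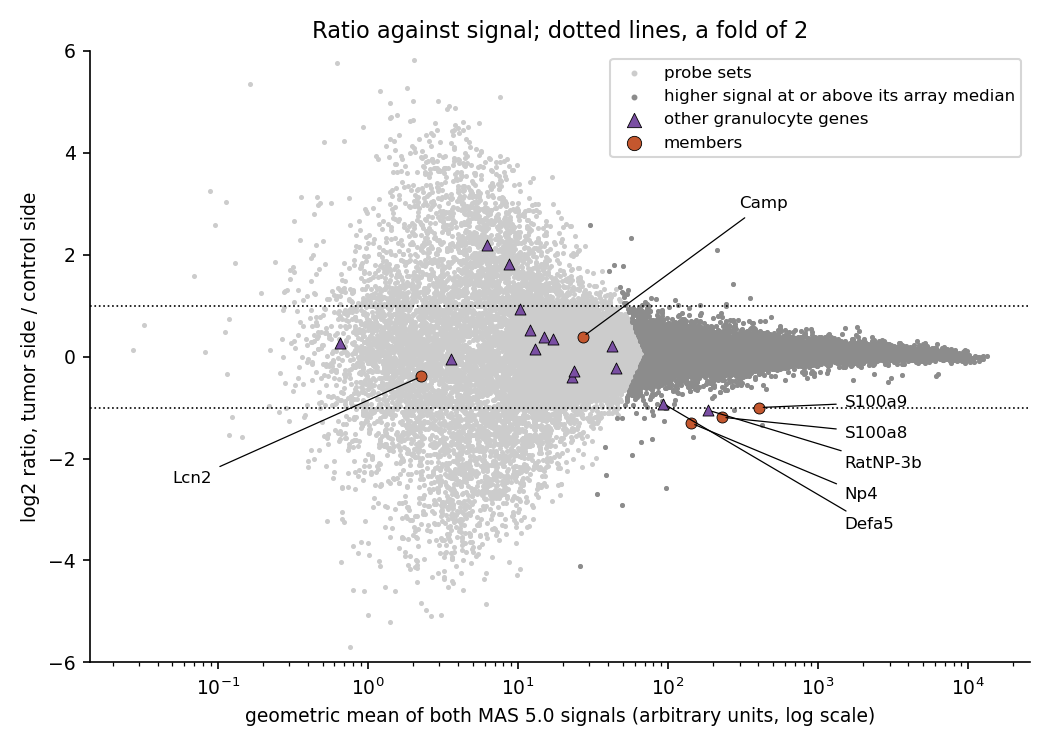
Log2 ratio of the tumor-side to the control-side signal against the geometric mean of both signals (log scale), 1 point per probe set, with dotted lines at a fold of 2. S100a8 (log2 ratio -1.19), S100a9 (-0.999), Np4 (-1.30), RatNP-3b (-1.05) and Defa5 (-0.92) lie under the dark band of probe sets that meet the signal rule, and Camp and Lcn2 lie among dim probe sets whose ratios scatter widely.

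Of 24 further genes listed with granulocytes, 15 had a probe set. The signal rule was met by 2 of these, both alpha-defensins and both lower on the tumor side. RatNP-3b (1370791_at) had a signal of 267 on the control side against 129 on the tumor side (log2 ratio -1.05), above the medians on both. Defa5 (1387943_at) had 128 and 67.7 (log2 ratio -0.92) and met the rule by its control-side signal only. Its gene lies beside Defb1 and Defa24, and whether granulocytes express it was not tested. The ratio of Np4 was 0.25 below that of RatNP-3b and 0.38 below that of Defa5 on the log2 scale. The remaining 13 were dim on both arrays. They include Pglyrp1, a peptidoglycan-binding granule protein, with 48.2 and 41.6, and Csf3r, the G-CSF receptor of the neutrophil lineage, with 26.5 and 20.1. Cxcr2, the chemokine receptor through which neutrophils are recruited, had 3.65 and 3.55, also no higher than the trp controls. Mmp8, a collagenase of specific granules, had 4.64 and 16.4, and Cebpe, a transcription factor of late granule formation, had 2.93 and 13.4, each with a control-side signal that did not exceed the trp controls, so that no fold is given. Over all 15, 6 were lower and 9 higher on the tumor side, with a median log2 ratio of 0.21. The lower signals were therefore measured on calprotectin and on the alpha-defensins Np4, RatNP-3b and Defa5. The alpha-defensin Defa7 (0.59 and 0.71) was no higher than the trp controls on both arrays. The receptors, proteases and transcription factors of neutrophils on the list were too dim to be read.

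Receptors, inhibitors and recruitment factors that met the signal rule had ratios within a fold of 2. Of 10 receptors or binding partners of granule proteins and calprotectin, 9 had a probe set and 6 met the signal rule, with a median log2 ratio of 0.11. Tlr4, a receptor for calprotectin, had 99.8 on the control side against 92.2 on the tumor side. Slc22a17, a receptor for Lcn2, had 1457 and 1638. Itgb2, the beta chain of leukocyte integrins, had the largest log2 ratio of the 6 in size, -0.35, with 87.6 and 68.8. Of the 3 below the rule, Ager, which encodes the calprotectin receptor RAGE, had 5.81 and 1.53, the latter no higher than the trp controls. Of 8 inhibitors of neutrophil proteases and related inhibitors, 5 met the rule, with log2 ratios from -0.23 (Serpina1, 121 and 103) to 0.26 (Timp1, 989 and 1181). Slpi, an inhibitor of neutrophil elastase, had 144 and 146. Spink4, below the rule, had 32.2 and 70.0. Of 11 measured genes of neutrophil recruitment and production, 3 met the rule and none reached a fold of 2, namely Il1b with 71.3 and 87.0, Cxcr4 with 329 and 369 and its ligand Cxcl12, which retains neutrophils in the marrow, with 504 and 561. Csf3, which encodes G-CSF, was dim with 14.1 and 6.68, and Cxcl1 (2.85 and 1.12) and Cxcl6 (0.95 and 12.3) had signals no higher than the trp controls on at least 1 array.

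Other genes named for the S100 family had ratios near those of all genes. All 12 listed genes (11 S100 genes and S100pbp, which encodes an S100-binding protein) had a probe set, 11 met the rule, and their log2 ratios were from -0.35 (S100a5, 70.3 and 55.0) to 0.29 (S100a4, 1850 and 2268), with a median of 0.06. The glial gene S100b had 7033 and 7400, and S100a10, which is expressed in SNs, had 9369 and 9656.

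Markers of other blood cells differed in part, in the same direction as the members. In whole ganglia, fewer cells of a type and less RNA per cell cannot be told apart. All 8 measured erythroid genes were lower on the tumor side, while 4904 of all 14217 genes were. None reached a fold of 2 among the 3 that met the rule, Alas2, the erythroid enzyme of haem synthesis (89.8 and 59.2, above the median on the control side only), Ahsp, which stabilises alpha-globin (114 and 87.4), and Hbb, beta-globin (4126 and 3207, by a probe set whose name marks possible cross-hybridisation). Below the rule, Rhag had 10.7 and 3.07 and Epb42 had 6.16 and 3.46, both with a tumor-side signal no higher than the trp controls. The median log2 ratio was -0.37 over Ahsp and Hbb, which were above the medians on both sides, and -0.67 over all 8. The summed signal of the 8 was 4460 on the control side, and the tumor side had 3435, 77.0% of it. Hbb alone supplied 4126 and 3207 of these sums, so the 77.0% describes mostly that probe set and not the list. The sums of the 5 members were 1167 and 561 (48.1%), of which S100a8 and S100a9 supplied 917 and 438. Several members were chosen for their lower tumor-side signals, so the 2 percentages are not comparable measures. The log2 ratios of S100a8, S100a9 and Np4 were 0.83, 0.64 and 0.94 below that of Hbb, which was -0.36. Alas2 had a lower one than Hbb, -0.60. Prg2, the major basic protein of eosinophils, had 133 and 67.7 (log2 ratio -0.98) and was the only one of 11 measured mast cell and eosinophil genes to meet the rule, by its control-side signal only. Of the 10 others, 8 were lower, among them the eosinophil peroxidase Epx, dim with 16.4 and 5.07, and Mcpt1 (6.96 and 2.49) and Mcpt4 (8.96 and 1.31), which were no higher than the trp controls on the tumor side. The summed signal of the 11 was 345 and 229. Of 5 measured platelet genes, the 2 that met the rule were Pf4, a platelet chemokine, with 159 and 168, and Itga2b, a chain of the platelet fibrinogen receptor, with 108 and 85.8, and the summed signals were 359 and 331. No listed gene of any of these cells was at 0. The part of blood content in the difference of the members was not tested.

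Macrophage genes had ratios near those of all genes. Of 13 macrophage genes, 11 met the rule and 9 of these were higher on the tumor side, as were 6867 of all 9691 genes that met it. Their log2 ratios were from -0.15 to 0.33 with a median of 0.16, against 0.08 over all genes that met the rule. Adgre1, which encodes F4/80, had 313 on the control side against 393 on the tumor side, and Csf1r, the receptor for M-CSF, had 204 and 253. The summed signal was 6196 and 6647. Ccr2, a receptor of blood monocytes, was dim with 8.45 and 2.91, the latter no higher than the trp controls. Of the phagocyte oxidase genes, which both cell types use, Cybb had 297 and 357, Cyba 175 and 195 and Rac2 95.9 and 93.3. Ncf1 was dim with 4.29 and 11.6, the former no higher than the trp controls. Of 9 measured lymphocyte genes, only the kinase gene Lck met the rule, with 71.9 and 64.6. Cd8a (14.4 and 1.24) and Cd79b (1.55 and 3.61), past a fold of 2 by number, were no higher than the trp controls on at least 1 array. Of 7 measured genes of blood progenitors and dividing cells, 4 met the rule, 2 on each side of 0, with Flt3, a receptor of early progenitors, at 56.8 and 99.2 and the proliferation marker Mki67 at 105 and 82.4.

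Signals of listed skeletal muscle and bone genes differed between the arrays as well, and which tissue or cells these transcripts came from was not tested. Of 11 skeletal muscle genes that met the rule, 9 were lower by a fold of 2 or more, 8 of these through the control side alone, with the myosin light chain Myl1 at 236 and 39.4. Of 7 bone and cartilage genes that met the rule, 3 were higher by a fold of 2 or more, with Mmp13 at 103 and 441. Over all 9691 genes that met the rule, 18 were lower and 13 higher by such a fold. Of the muscle genes, 3 were above the medians on both sides. These were the actin gene Acta1 (397 and 192), the fast myosin gene Myh1 (1583 and 1742) and Pvalb (1063 and 1199.7). Pvalb is a calcium buffer that SNs express too. The name of the Myh1 probe set marks possible cross-hybridisation, and a Myh1 probe set without that mark (1377114_at) had 586 and 711. The median log2 ratio of the 3 was 0.14, against -1.62 over the 11 that met the rule. The 7 bone and cartilage genes, all above the medians on both sides, had a median of 0.95. In contrast, 9 SN genes had a median of -0.04 and 6 glial genes one near 0 (Fabp7 at 2675 and 2875). The part of neighbouring tissue in the difference of the members was not tested.

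**Figure D3:**
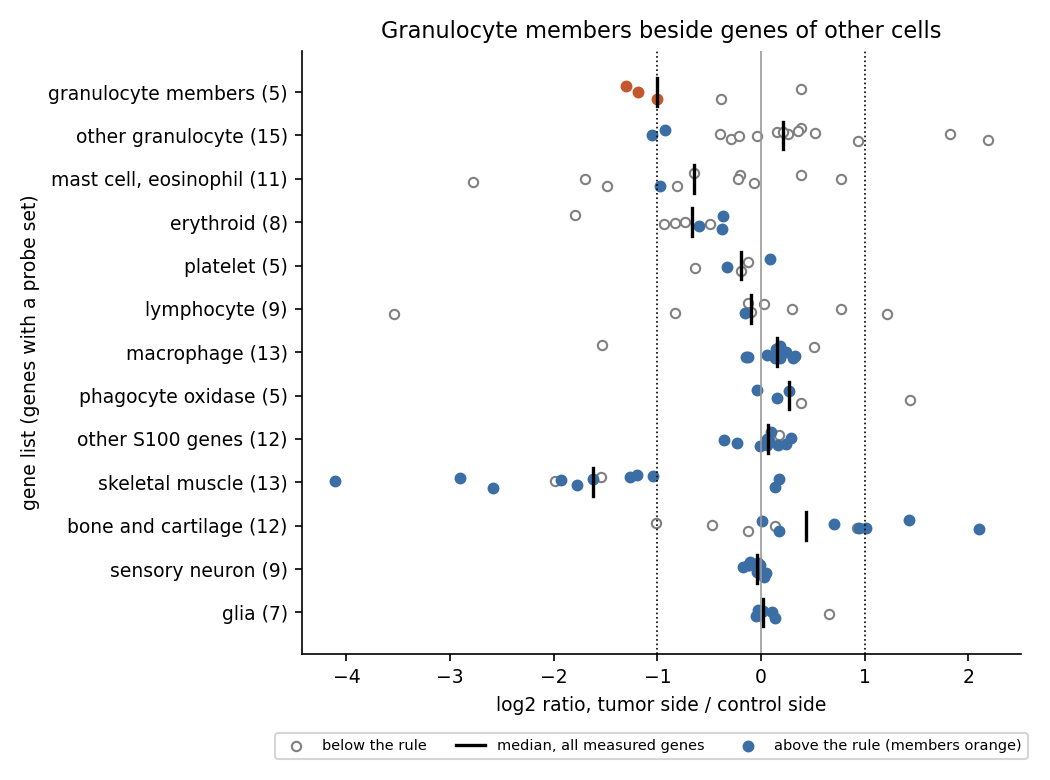
Log2 ratio of the tumor-side to the control-side signal for each measured gene of 13 lists, 1 point per gene on its brightest probe set, filled where the gene meets the signal rule and open where it does not, with black bars at the medians of all measured genes and dotted lines at a fold of 2. The 3 filled members lie between -1.30 and -0.999, the 8 erythroid genes are all below 0, and macrophage, other S100, SN and glial genes that meet the rule lie between -0.35 and 0.33.

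The 5 named genes nearest to S100a8 in both log2 signals over the 2 arrays were Prkcq (281 and 173), Kmt2d (267 and 156), Skic2 (300.2 and 192), Acta1 (397 and 192) and Pnpla3 (261 and 149). Distances, on the log2 scale, were from 0.36 to 0.40, and with only 2 arrays they reflect level and ratio alone. None of the 5 was on a list of granulocyte genes.

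How many members passed a fold of 2 depended on S100a9. After quantile normalization, centring on the median log2 ratio or loess, its log2 ratio was -1.09, -1.08 and -1.09 and all 3 bright members passed. With a pseudocount of 11.1 it was -0.97 and 2 of 3 passed. S100a8 stayed between -1.27 and -1.13 and Np4 between -1.38 and -1.21 under every scaling and the pseudocount, Camp between 0.27 and 0.39, and Lcn2 between -0.48 and -0.07.

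**Figure D4:**
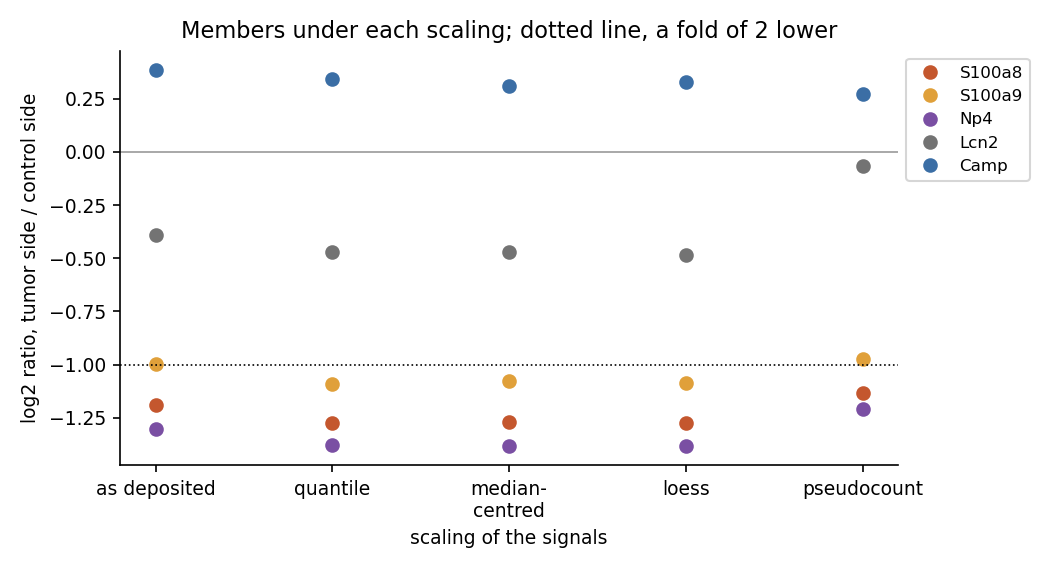
Log2 ratio of the tumor-side to the control-side signal of the 5 members for the deposited signals, 3 other scalings and the pseudocount, 1 point per gene and setting, with a dotted line at a fold of 2 lower. S100a8 and Np4 lie under the line in all 5 settings, S100a9 is under it after quantile normalization, centring and loess, and Camp stays above 0.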

How the data were processed

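RNA of DRGs from each side was hybridized to 1 array. The authors computed MAS 5.0 signals (MAS5 in the submitters' processing notes) with default settings and deposited these intensity values on a linear scale for 31099 probe sets, 57 of them controls. No detection calls were used, and the sources used here do not name the scaling target. The single array per side limits the precision.

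The deposited values were used without further normalization. Log2 ratios are tumor side over control side, without a pseudocount. GEO's platform annotation gave 1 symbol to 20826 probe sets, several to 436 and none to 9780. A gene was represented by the probe set with its highest mean log2 signal (14217 genes). A probe set met the signal rule if its higher signal reached the median of that array. No test was possible with 1 array per side, and counts use a fold of 2. The SD between same-gene probe sets was pooled over genes within a fold of 2 of a member's mean signal. Named are the members, per list the up to 4 genes above the signal rule with the largest log2 ratios in size and any past a fold of 2, and the 5 genes nearest to S100a8. Other genes were chosen after their values were seen, and a few that the rule covers are given in counts. The members and lists were chosen with earlier results of these data known. Alternatives were quantile normalization, centring, loess (span 0.3), a pseudocount of 11.1 (percentile 20 of all signals), other signal filters, other choices of probe set, and folds of 1.5 and 3. Promoters are from RefSeq (GRCr8), and windows were aligned globally. The counting was tested on simulated data. Python 3.11.15, numpy 2.4.6, pandas 2.3.3, scipy 1.17.1, statsmodels 0.14.6, biopython 1.88 and matplotlib 3.10.9 were used.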

Additional observations from a re-analysis of the deposited data

How the results depend on the processing

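All 30 values of single members under other settings stayed within 1 SD between same-gene probe sets of the main value, and none changed its sign. With 1 probe set per member and none open to cross-hybridisation by its name, both choices of probe set repeated the main values by construction. Centring moved every log2 ratio alike by 0.08, and Lcn2 was set against an SD of 1.88, so many of these values had little room to move further. The median log2 ratio of the members above the signal rule, -1.19, was between -1.27 and -0.999 under all alternatives run. The number of members lower by a fold of 2 or more was 2, and it was 1 with the signal filter at percentile 75, which left out Np4, and 0 at a fold of 3. Of the other granulocyte genes, 1 was so, against 2 with median-centred log2 ratios and at a fold of 1.5, and 0 with the pseudocount, the filter at percentile 75 and a fold of 3. Over all probe sets, 24 were so, against 1913 without a signal filter, 6 with both signals at or above the medians, 13 with the geometric mean signal at or above its median, 3 with the filter at percentile 75, and 119 and 9 at folds of 1.5 and 3. Filters and folds change these counts by construction. No paired analysis was possible because there was only 1 array for each side. Low signal limits what can be read of Camp, Lcn2 and most other granulocyte genes, since ratios scatter more widely there.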
